A study of Ambystoma mexicanum with 18 samples.

Results

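The genes described here are the axolotl genes of innate sensing and of the signalling routes that lead from it: Toll-like receptors (TLRs), the adaptors and kinases below them, NLR, CARD and inflammasome genes, NF-kB subunits and inhibitors, interferon regulatory factors (IRFs), JAK kinases with STAT factors, and SOCS inhibitors. They were chosen by gene symbol in the deposited table of counts. Of 99126 gene models, 78 carried a matching symbol, and 66 of these reached 0.5 CPM (counts scaled to library size) in at least 3 libraries and are the members described. The other 12 models stayed below that level and are listed at the end. Levels printed below are CPM scaled by TMM as well, and fold changes are on the log2 scale. Where several models share a symbol, each is a member and is told apart by its gene ID. In the study, the forelimbs of axolotls that carry mCherry at the endogenous Hoxa13 gene were amputated, and late bud blastemas, the mounds of progenitor cells that rebuild the limb, were electroporated in the mCherry+ distal domain. The plasmids carried Tig1, a cell surface protein studied for its part in proximal identity, or Tig1P155A, a version with an altered latexin domain, each joined to GFP by a self-cleaving peptide. The 6 groups, with 3 libraries each, were mCherry+/GFP+ cells overexpressing Tig1 at 3 days post electroporation (dpe), mCherry+/GFP+ cells overexpressing Tig1P155A at 3 dpe, mCherry+/GFP- control cells at 3 dpe, and the same 3 kinds of cell at 8 dpe. All groups came from the same reporter line and from electroporated blastemas, so control cells are neighbours of transfected cells and not cells given a GFP plasmid, and no library of cells with GFP alone was analysed. Tig1 level, plasmid uptake, GFP and sorting for GFP therefore differ together between overexpressing and control cells and cannot be told apart. The effect of overexpression named below is the difference between these sorted groups. Blastemas were pooled for each condition and 300 sorted cells went into each Smart-seq2 library. The study's methods call the libraries of a condition biological replicates, and the sources used here do not say whether each came from a separate pool of blastemas.

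As background, TLRs bind microbial products or nucleic acids at the cell surface or inside endosomes and signal through MYD88, IRAK kinases and TRAF ligases to NF-kB and to IRFs. NLR proteins sense danger in the cytosol, and CARD proteins such as CARD9 and PYCARD assemble the complexes that carry such signals on. Cytokines and interferons act through JAK kinases on STAT factors, and SOCS proteins are induced by that route and hold it back. In vertebrates these genes are expressed most widely in myeloid cells, although many of the shared signalling parts are present in most cell types.

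Libraries held 9732514 to 23086124 counts, of which the mitochondrial 16S rRNA took 13.4% to 58.1%. That share was above 50% in Tig1 3 dpe R2, Tig1P155A 3 dpe R1 and Tig1P155A 8 dpe R1 (R, replicate). The gene model of Tig1, LOC115479139, exceeded all control libraries of its time in 12 of 12 overexpressing libraries, and HoxA13, the gene that carries the reporter, lay below in 12 of 12. Of 11 connective tissue markers found, 11 were called lower in overexpressing cells, with a summed level of 646 to 1721 CPM in Tig1 and Tig1P155A cells and 3683 to 9830 CPM in control cells at 3 dpe. Of 20 myeloid markers, 15 were found and 14 tested, and 14 were called higher, with a median log2 fold change of 7.24. Their summed level was 8804 to 9539 CPM in Tig1 cells, 10101 to 12514 CPM in Tig1P155A cells and 2.47 to 109 CPM in control cells at 3 dpe. At 8 dpe the sum was 4985 to 8989 CPM in Tig1 cells, 5263 to 8304 CPM in Tig1P155A cells and 26.6 to 33.5 CPM in control cells. SPI1, the factor that defines the myeloid lineage, had 1743 counts in Tig1 cells, 2575 in Tig1P155A cells and 11 in control cells at 3 dpe, and 1006, 1947 and 3 counts in the same kinds of cell at 8 dpe. Of the myeloid markers found, none was without a count in the control libraries. The myeloid markers therefore moved in the same direction as the members described below, and their part in those results was not tested. In these bulk libraries, fewer cells of a type and less RNA per cell cannot be told apart.

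Against control cells, more of these genes were called higher than lower at both times and with both forms of Tig1, while 28 to 35 of the 66 were not called in a comparison. In Tig1 cells at 3 dpe, 37 of the 66 members were called higher and 0 lower than in control cells, where 15.5% of the 25377 genes tested were called higher and 8.47% lower, 24.0% in all. Tig1P155A cells at 3 dpe had 37 members called higher and 1 called lower, against 15.2% and 11.5% of all genes, 26.7% in all. At 8 dpe, 31 members were called higher and 0 lower in Tig1 cells, and 32 higher and 0 lower in Tig1P155A cells, against 10.6% of all genes called higher with each form and 1.29% and 1.72% called lower, 11.9% and 12.4% in all. A call is an adjusted p below 0.05 in edgeR's quasi-likelihood test with Benjamini-Hochberg adjustment over all genes tested. DESeq2 called 0, 2, 0 and 0 members lower in the same 4 comparisons, and 0, 1, 0 and 0 had an unadjusted p below 0.05 in that direction. These comparisons share their control libraries at each time, so they are not independent of each other. Genes tested had to reach 0.5 CPM in at least 1 library, and members in at least 3. The shares of all genes given here and below therefore rest on a looser filter than the members passed.

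In the average of the 4 comparisons with control, 48 of 66 members were called higher and 0 lower, where 21.4% of all genes tested were called higher and 18.7% lower, 40.1% in all. DESeq2 called 1 member lower, and 2 had an unadjusted p below 0.05 in that direction. The median log2 fold change of the members was 2.03, and that of all genes tested was 0.049. The members' medians in the single comparisons were 2.14 for Tig1 and 1.99 for Tig1P155A at 3 dpe, and 1.97 for Tig1 and 2.01 for Tig1P155A at 8 dpe, where those of all genes lay between 0 and 0.12. A member could reach 0.5 CPM through overexpressing libraries alone, so these counts describe the members and support nothing further. Of the 51 members that reached that level in control libraries alone, 35 were called higher, 0 lower and 16 were not called. The share of all genes that pass the same filter was not counted, so these 51 have no share to be set against. Scaling by library size alone shifted the median of all genes by -0.57 on the log2 scale, and with it 35 members were called higher and 2 lower in the average. Over all genes, 11024 were then called in either direction, against 10182 by TMM, and their split by direction is not given here. The 21.4% printed with each role below is by TMM and is no share for the counts by library size alone.

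Called higher in all 4 comparisons were 28 members, against 8.80% of all genes tested, and 24 members were called higher in none of the 4. In 12 of 12 overexpressing libraries, 30 members exceeded all 3 control libraries of their time, against 10.9% of all genes, and 0 members lay below them in 12 of 12, against 6.05%. By role, the counts differed. Of 10 TLR models, 8 were called higher in all 4 comparisons, as were 5 of 8 NF-kB genes, 5 of 10 IRF models, 4 of 9 JAK and STAT genes, 4 of 14 NLR and CARD models, 2 of 10 adaptors and kinases and 0 of 5 SOCS genes. When libraries were left out one by one, 21 of the 28 kept all 4 calls. Those that lost one were IRAK3, TRAF1, IRF5, IRF9 (AMEX60DD009562), STAT2, NOD2 and PYCARD (AMEX60DD028290). For IRF9 and STAT2 it was the call in Tig1 cells at 3 dpe that ended, without Tig1 3 dpe R1 (adjusted p = 0.0644 and 0.08) and, for STAT2, also without control 3 dpe R2 (0.0569), and for PYCARD the same call without control 3 dpe R3 (0.0518). NOD2 lost its call at 8 dpe in Tig1 cells without control R1 (0.054) and in Tig1P155A cells without Tig1P155A R2 (0.101) or R3 (0.0509), or without control R1 (0.122), R2 (0.0559) or R3 (0.0671). IRF5 lost calls in Tig1P155A cells at 3 dpe and with both forms at 8 dpe. By library size alone 19 of the 28 kept all 4 calls, and in every alternative setting 17 did, among them all 8 TLR models. How many of all genes kept their calls in these settings was not counted.

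**Figure D1:**
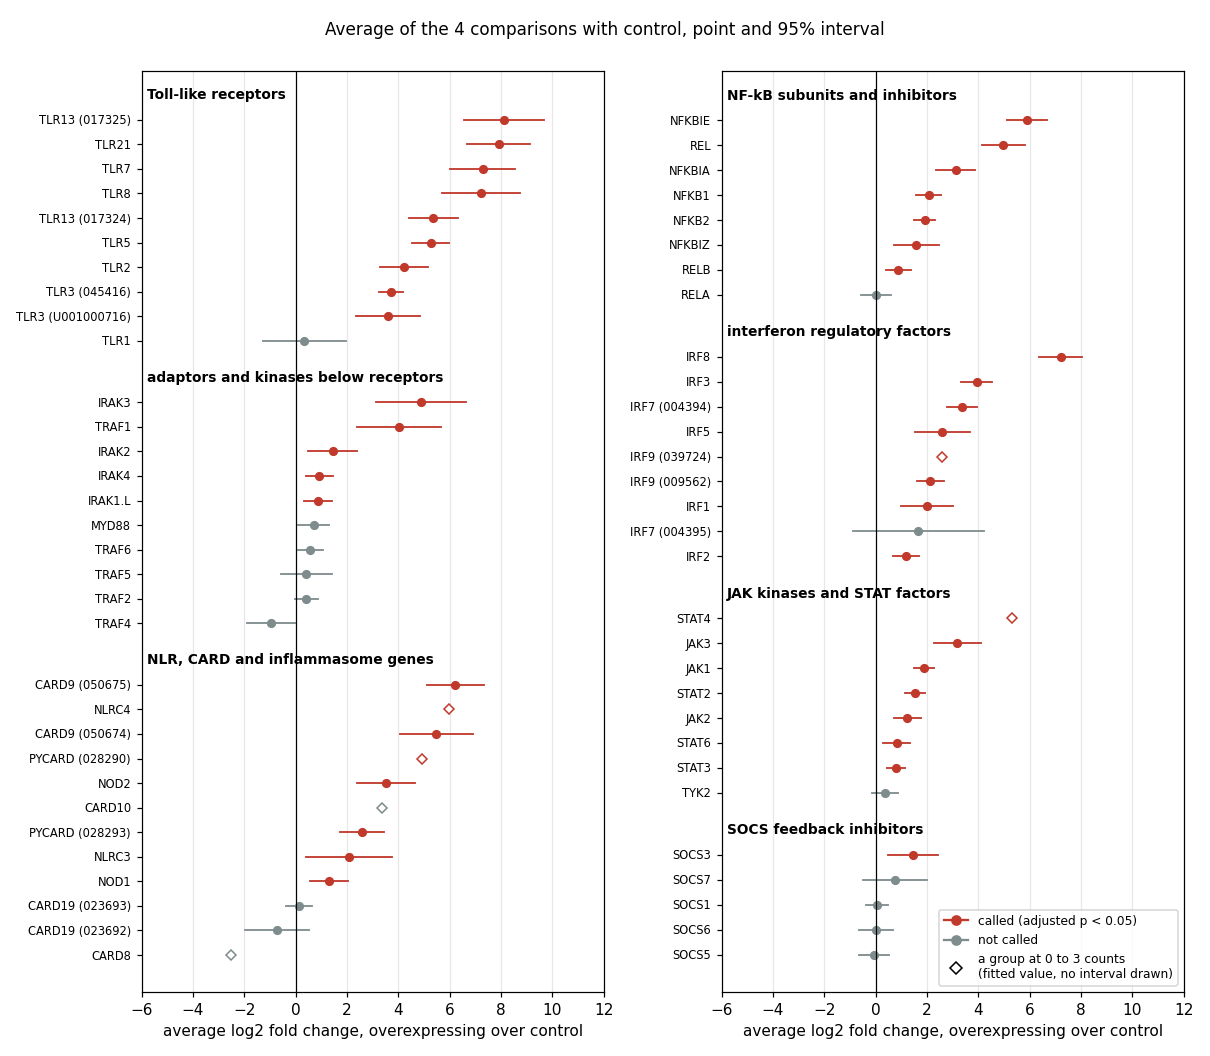
The log2 fold change of members in the average of the 4 comparisons with control is plotted by role, with open symbols where a group held 0 to 3 counts. TLR models reach 8.11, whereas the 5 SOCS genes lie between -0.06 and 1.46.

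The TLRs had the largest median change of the 7 roles, a log2 fold change of 5.31 in the average. Of 10 models, 9 were called higher, where 21.4% of all genes tested were, and 9 by library size alone. TLR7 and TLR8 are endosomal receptors for single-stranded RNA, TLR13 is known from mouse as a sensor of bacterial ribosomal RNA, and TLR21 from chicken as a receptor for unmethylated CpG DNA. TLR7 (AMEX60DD048520, 7q, 51146898 to 51323607, minus strand, build AmexG_v6.0-DD as for every position given here) had 276, 225 and 258 CPM in Tig1 cells, 280.3, 282 and 300.1 CPM in Tig1P155A cells and 2.77, 0 and 0.975 CPM in control cells at 3 dpe. At 8 dpe the TLR7 level was 118, 193 and 229 CPM in Tig1 cells, 144, 159 and 205 CPM in Tig1P155A cells and 1.34, 2.09 and 1.37 CPM in control cells. The 12 overexpressing libraries lay between 118 and 300.1 CPM and the 6 control libraries between 0 and 2.77 CPM, so the groups did not overlap at either time. Its log2 fold change in the average was 7.28 ± 0.60 (SE, adjusted p = 1.87e-08).

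TLR13 (AMEX60DD017325, 1q, 173807128 to 174128126, minus strand) had 27.1, 21.4 and 38.5 CPM in Tig1 cells, 7.46, 33.5 and 27.8 CPM in Tig1P155A cells and 0.363, 0 and 0 CPM in control cells at 3 dpe. The 8 dpe values were 14.3, 24.8 and 18.4 CPM in Tig1 cells, 18.9, 25.5 and 17.1 CPM in Tig1P155A cells and 0, 0 and 0.148 CPM in control cells. Of the 6 control libraries, 4 held no count of it, and its log2 fold change of 8.11 ± 0.74 (SE, adjusted p = 6.08e-08) rests on 12 control counts in all. TLR21 (AMEX60DD018080, 1q, 513449262 to 513475491, minus strand) had 49.6, 74.2 and 75 CPM in Tig1 cells, 118, 67 and 84.3 CPM in Tig1P155A cells and 0.409, 0 and 0.447 CPM in control cells at 3 dpe. At 8 dpe its level was 30.6, 41.8 and 66.5 CPM in Tig1 cells, 51.9, 44.7 and 38.7 CPM in Tig1P155A cells and 0.328, 0.33 and 0 CPM in control cells. The lowest overexpressing library had 30.6 CPM and the highest control library 0.447 CPM, a log2 fold change of 7.92 ± 0.58 (SE, adjusted p = 4.42e-09).

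TLR8 (AMEX60DD048519, 7q, 50967209 to 51058258, minus strand), which follows in size, had 169, 205 and 199.5 CPM in Tig1 cells, 97.3, 210.0 and 197 CPM in Tig1P155A cells and 3.5, 0 and 3.05 CPM in control cells at 3 dpe. The 8 dpe values were 101, 238 and 219.7 CPM in Tig1 cells, 71.5, 184 and 256 CPM in Tig1P155A cells and 0.917, 0.165 and 0.849 CPM in control cells. The groups did not overlap at either time, and its log2 fold change was 7.21 ± 0.72 (SE, adjusted p = 2.21e-07). The other TLR13 model (AMEX60DD017324) changed by 5.37, TLR5, the flagellin receptor, by 5.25, and TLR2, which senses bacterial lipoproteins, by 4.21 on the log2 scale, and all 3 were called higher in each of the 4 comparisons. TLR3, the endosomal receptor for double-stranded RNA, has 2 models. The one on 6q, 967547774 to 967651249, plus strand (AMEX60DD045416) was the TLR with the lowest adjusted p. It had 79.8, 98 and 99.5 CPM in Tig1 cells, 70.6, 90.7 and 92.8 CPM in Tig1P155A cells and 5.5, 5.52 and 5.4 CPM in control cells at 3 dpe. At 8 dpe it had 59.1, 110.4 and 73.3 CPM in Tig1 cells, 47.9, 84.6 and 114 CPM in Tig1P155A cells and 8.74, 6.65 and 7.61 CPM in control cells. The log2 fold change was 3.71 ± 0.23 (SE, adjusted p = 4.45e-10), and the groups did not overlap at either time. The other TLR3 model, AMEX60DDU001000716, changed by 3.60.

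TLR1, which pairs with TLR2, was the TLR model that was not called, with a log2 fold change of 0.34 (adjusted p = 0.811). It had 0.605, 0 and 0 CPM in Tig1 cells, 0, 0.48 and 1.48 CPM in Tig1P155A cells and 0.636, 0.203 and 0.406 CPM in control cells at 3 dpe. The 8 dpe values were 3.31, 1.43 and 0.769 CPM in Tig1 cells, 11.9, 1.84 and 0.999 CPM in Tig1P155A cells and 2.13, 2.36 and 0.997 CPM in control cells. The overexpressing and control libraries overlapped at both times, and Tig1P155A 8 dpe R1 held the highest value. Among control libraries, 3 dpe R2 stood lowest, with a TLR sum of 8.43 CPM. It had 0 CPM of TLR7, TLR8, TLR21 and the TLR13 model (AMEX60DD017325), and was the lowest of the 3 libraries of its group for 7 of 10 TLR models. Its myeloid marker sum was 2.47 CPM, against 109 CPM in R1 and 66.6 CPM in R3. Over all genes tested, the same library was the lowest of its group for 21.0%. Without it, 31 instead of 37 members were called in Tig1 cells at 3 dpe.

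**Figure D2:**
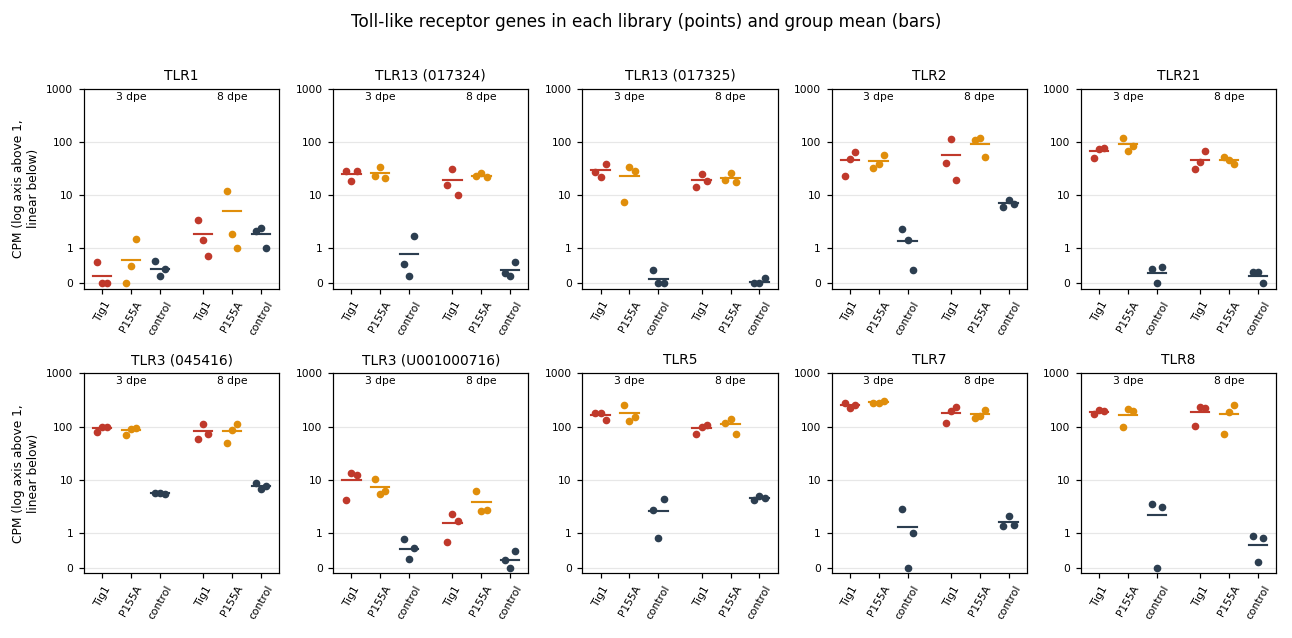
Levels of TLR models are plotted in CPM, with a point for each library and a bar for the group mean, on an axis that is logarithmic above 1 and linear below, with Tig1, Tig1P155A and control libraries side by side at 3 and 8 dpe. For TLR7 the 12 overexpressing libraries sit between 118 and 300.1 CPM and the control libraries at 2.77 CPM or below.

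The summed TLR level and the summed myeloid marker level were high in the same libraries. The TLR sum was 835 to 910 CPM in Tig1 cells, 890 to 937 CPM in Tig1P155A cells and 8.43 to 19.5 CPM in control cells at 3 dpe. At 8 dpe it was 453 to 853 CPM in Tig1 cells, 600 to 786 CPM in Tig1P155A cells and 23.4 to 24.8 CPM in control cells. Tig1 8 dpe R1 had the lowest TLR sum and the lowest myeloid sum of the overexpressing libraries, 453 and 4985 CPM, together with a connective tissue sum of 9226 CPM, against 2582 and 2993 CPM in the other Tig1 libraries at 8 dpe. Without it, 35 instead of 31 members were called in Tig1 cells at 8 dpe. The neutrophil granule list behaved like the myeloid list, with 4 of 4 tested genes called higher, a sum of 269 to 467 CPM in overexpressing cells and 0.349 to 4.67 CPM in control cells at 3 dpe, and MMP8 at 0 in every library. Of the lymphocyte list, 3 of 6 tested genes were called higher, with sums of at most 16.1 CPM in overexpressing cells and 0.4996 CPM in control cells. CD79A, CD79B and LCK were at 0 in every control library and in every Tig1P155A library. In Tig1 cells they had 2, 8 and 11 counts at 3 dpe and 1, 0 and 19 counts at 8 dpe. CD79A was not tested, and CD79B and LCK were not called. None of these marker lists holds a member.

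**Figure D3:**
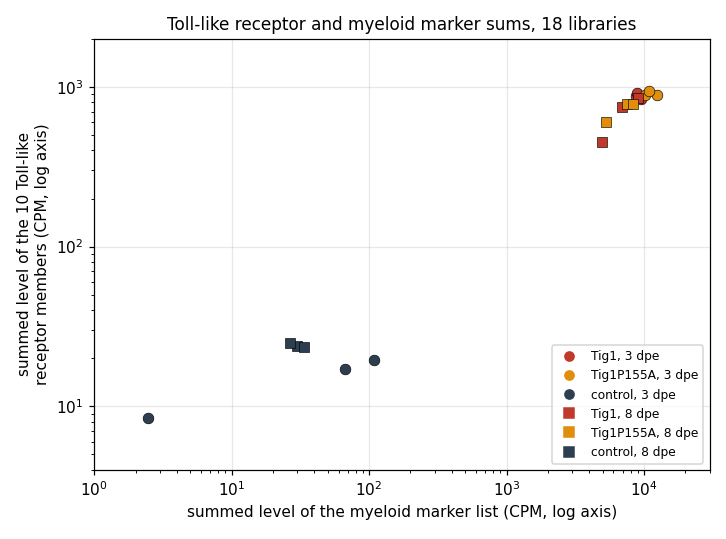
The sum of the TLR models in CPM is plotted against the sum of the myeloid markers in CPM for the 18 libraries, on logarithmic axes, with colours for Tig1, Tig1P155A and control. The overexpressing libraries lie at 453 CPM or more of TLR, and the control libraries at 24.8 CPM or less.

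Of the adaptors and kinases below the receptors, 5 of 10 were called higher in the average, where 21.4% of all genes tested were. Their median log2 fold change was 0.78, and by library size alone 2 were called higher and 1 lower. The largest change was in IRAK3 (AMEX60DD008228, 12q, 774518017 to 774657779, plus strand), an IRAK without kinase activity that restrains TLR signalling. It had 1.9, 7.13 and 3.46 CPM in Tig1 cells, 4.46, 1.54 and 3.21 CPM in Tig1P155A cells and 0.0454, 0.262 and 0 CPM in control cells at 3 dpe. The 8 dpe values were 3.73, 4.18 and 0.769 CPM in Tig1 cells, 1.03, 1.74 and 2.8 CPM in Tig1P155A cells and 0.0328, 0.22 and 0 CPM in control cells. These levels are low, but the groups did not overlap, and the log2 fold change was 4.89 ± 0.84 (SE, adjusted p = 0.000125). Its calls at 8 dpe ended with 1 library left out: in Tig1 cells without control 8 dpe R1 (adjusted p = 0.0592), and in Tig1P155A cells without Tig1P155A 8 dpe R3 (0.0605), control 8 dpe R1 (0.101) or control 8 dpe R3 (0.0875).

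TRAF1 (AMEX60DD050616, 8p, 133865800 to 134305418, plus strand), a TRAF without a RING domain that is itself a target of NF-kB, had 2.34, 6.37 and 2.37 CPM in Tig1 cells, 1.46, 2.98 and 1.12 CPM in Tig1P155A cells and 0, 0.349 and 0.163 CPM in control cells at 3 dpe. At 8 dpe its level was 1.02, 1.23 and 4.48 CPM in Tig1 cells, 2.75, 1.26 and 2.19 CPM in Tig1P155A cells and 0.0655, 0 and 0.259 CPM in control cells. All 12 overexpressing libraries were above every control library of their time, with a log2 fold change of 4.01 ± 0.78 (SE, adjusted p = 0.000457). Its call in Tig1P155A cells at 3 dpe ended without Tig1P155A 3 dpe R2 (adjusted p = 0.102), control 3 dpe R1 (0.0944) or control 3 dpe R3 (0.093). Its call in Tig1 cells at 8 dpe ended without Tig1 8 dpe R3 (0.102), control R1 (0.108) or control R2 (0.0875), and that in Tig1P155A cells without Tig1P155A R1 (0.052) or R3 (0.0505), control R1 (0.114) or control R2 (0.0926).

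IRAK2 (AMEX60DD023517, 2q, 167432768 to 168766337, minus strand), the kinase that sustains signalling after IRAK4, had 5.02, 3.64 and 7.18 CPM in Tig1 cells, 8.37, 3.36 and 8.01 CPM in Tig1P155A cells and 0.363, 2.93 and 1.79 CPM in control cells at 3 dpe. The 8 dpe values were 5.59, 3.89 and 15.1 CPM in Tig1 cells, 8.94, 2.89 and 8.53 CPM in Tig1P155A cells and 3.57, 2.8 and 4.17 CPM in control cells. The groups overlapped at 8 dpe only, through Tig1 R2 and Tig1P155A R2, and the log2 fold change was 1.43 ± 0.45 (SE, adjusted p = 0.0164), or 0.75 (adjusted p = 0.213) by library size alone. IRAK4 and the IRAK1 model (IRAK1.L) were called higher by 0.91 and 0.86, and the IRAK1 model lost that call without control 8 dpe R1 (adjusted p = 0.0536), without mitochondrial genes (0.0587) and with every gene of at least 1 count tested (0.111). By library size alone neither IRAK4 (0.39, adjusted p = 0.382) nor the IRAK1 model (0.31, 0.544) was called. MYD88, the adaptor that most TLRs share, was not called. It had 60.1, 17 and 74.9 CPM in Tig1 cells, 50.1, 55.7 and 52 CPM in Tig1P155A cells and 46.9, 23.5 and 18.1 CPM in control cells at 3 dpe. At 8 dpe MYD88 had 29.1, 46.2 and 31.5 CPM in Tig1 cells, 21, 31.4 and 51.4 CPM in Tig1P155A cells and 28.3, 16.4 and 24.8 CPM in control cells. Its log2 fold change was 0.70 (95% interval 0.09 to 1.31) in the average (adjusted p = 0.0615). TRAF6, the ligase that links MYD88 to NF-kB, had a log2 fold change of 0.57 (95% interval 0.08 to 1.07, adjusted p = 0.0616), TRAF2 one of 0.41 and TRAF5 one of 0.42, and none of them was called. TRAF4 was the adaptor with a value below 0, -0.95 (95% interval -1.89 to -0.02, adjusted p = 0.0972). Without control 3 dpe R1, MYD88 and TRAF6 were called higher (adjusted p = 0.0199 and 0.0203), and so was MYD88 without Tig1 3 dpe R2 (0.0131) or Tig1P155A 8 dpe R1 (0.0427). MYD88 was also called higher with every gene of at least 1 count tested (0.0187) and without the 3 libraries with over 50% 16S rRNA (0.00701). TRAF4 was called lower without Tig1P155A 3 dpe R2 (0.0166) or Tig1P155A 8 dpe R2 (0.0298), and by library size alone (-1.53, 0.0145). It was also called lower by DESeq2 (-1.06, 0.0375) and without mitochondrial genes (-1.17, 0.0441).

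Of the NLR, CARD and inflammasome genes, 10 of 14 models were called higher in the average, where 21.4% of all genes tested were. By library size alone, 8 were called higher and 1 lower. Fitted values are no bound where a group held no count, and with such values set at their bound the median log2 fold change was 2.98. CARD9, the adaptor that carries signals from C-type lectin receptors, has 2 models, and the larger change was in the one on 8p, 152417507 to 152737835, minus strand (AMEX60DD050675). It had 9.77, 15.6 and 17.5 CPM in Tig1 cells, 9.28, 9.21 and 10.7 CPM in Tig1P155A cells and 0.227, 0.145 and 0.0813 CPM in control cells at 3 dpe, and 2.83, 7.83 and 9.99 CPM in Tig1 cells, 9.06, 7.99 and 11.1 CPM in Tig1P155A cells and 0.197, 0.11 and 0 CPM in control cells at 8 dpe. No overexpressing library overlapped a control library, and the log2 fold change was 6.21 ± 0.53 (SE, adjusted p = 2.72e-08). The other CARD9 model (AMEX60DD050674) changed by 5.48.

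NLRC4 (AMEX60DD035246, 4q, 337777623 to 337958935, minus strand), which forms an inflammasome on bacterial flagellin, had no count in control cells. It had 0.13, 1.21 and 1.52 CPM in Tig1 cells, 0, 0.576 and 0 CPM in Tig1P155A cells and 0, 0 and 0 CPM in control cells at 3 dpe, and 0.241, 0.0985 and 0 CPM in Tig1 cells, 2.87, 0.368 and 0.0384 CPM in Tig1P155A cells and 0, 0 and 0 CPM in control cells at 8 dpe. With control cells set at 3 counts over the group, it was at least 18.9-fold higher in Tig1 and 6.30-fold in Tig1P155A cells at 3 dpe, and at least 3.39-fold in Tig1 and 15.5-fold in Tig1P155A cells at 8 dpe. Its call in the average (adjusted p = 0.00644) ended without Tig1P155A 3 dpe R2, the sole library of its group with a count. Both the Tig1P155A and the control group at 3 dpe then held 0 counts, so that fit cannot show whether the call holds. Its call in Tig1 cells at 3 dpe ended without Tig1 3 dpe R2 (adjusted p = 0.0645) or R3 (0.0782), or control 3 dpe R1 (0.0904), R2 (0.103) or R3 (0.0822).

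PYCARD, the inflammasome adaptor also called ASC, has 2 members, which changed by 4.94 (AMEX60DD028290) and 2.56 (AMEX60DD028293). For the model AMEX60DD028290 the 3 control libraries at 8 dpe held 3 counts in all, and the ratio was 52.5 (95% interval 17.4 to 259) for Tig1 cells and 67.2 (22.5 to 330) for Tig1P155A cells, intervals that cover counting error only. NOD1 and NOD2, sensors of peptidoglycan fragments, were called higher by 1.28 (0.69 by library size alone, adjusted p = 0.190, without a call) and 3.52, and NLRC3 by 2.08 (adjusted p = 0.0471). NLRC3 lost that call, with adjusted p of 0.0507 to 0.121, without Tig1 3 dpe R2 or R3, Tig1 8 dpe R3, any Tig1P155A library at 3 dpe, Tig1P155A 8 dpe R1 or R2, control 3 dpe R1 or R2, or any control library at 8 dpe, and also without mitochondrial genes (0.0714), with DESeq2 size factors (0.0567) and by library size alone (1.31, 0.160). CARD10 and the 2 CARD19 models were not called.

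CARD8, a CARD protein that activates caspases in human cells, was the member called lower in 1 comparison. It had 1.51, 0 and 0 CPM in Tig1 cells, 0, 0 and 0 CPM in Tig1P155A cells and 1.86, 1.39 and 0.772 CPM in control cells at 3 dpe, and 0, 0.295 and 1.67 CPM in Tig1 cells, 1.38, 0.105 and 0.692 CPM in Tig1P155A cells and 1.6, 1.04 and 0.185 CPM in control cells at 8 dpe. The control libraries at 3 dpe held 108 counts and the Tig1P155A libraries none, so CARD8 was at least 22.8-fold lower in Tig1P155A cells (adjusted p = 0.0237). The 35 counts in Tig1 cells at 3 dpe all came from R1, and the call for Tig1P155A ended without any of its own 3 libraries (adjusted p = 0.0585 without R1, 0.0615 without R2 and 0.0707 without R3). In the average the log2 fold change was -2.50 (adjusted p = 0.0506), and it was called lower without Tig1 3 dpe R1 (-4.15, adjusted p = 0.00449), Tig1 8 dpe R3 (-3.01, 0.0239), Tig1P155A 8 dpe R1 (-2.72, 0.0462) or control 8 dpe R3 (-2.80, 0.0412), and by library size alone (-2.96, 0.0147).

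NF-kB genes were called higher in 7 of 8 cases in the average, where 21.4% of all genes tested were. Their median log2 fold change was 1.99, and by library size alone 5 were called higher. NFKBIE (AMEX60DD036517, 4q, 1166989788 to 1167203061, minus strand), which encodes IkB-epsilon and is itself induced by NF-kB, had 49.5, 28.7 and 41.9 CPM in Tig1 cells, 115, 57.2 and 62.6 CPM in Tig1P155A cells and 0.272, 0.755 and 1.18 CPM in control cells at 3 dpe. At 8 dpe its level was 21.1, 36.5 and 43.3 CPM in Tig1 cells, 39.1, 52.1 and 39.6 CPM in Tig1P155A cells and 0.59, 1.32 and 0.591 CPM in control cells. The lowest overexpressing library had 21.1 CPM and the highest control library 1.32 CPM, a log2 fold change of 5.89 ± 0.37 (SE, adjusted p = 5.7e-10). NFKBIA (AMEX60DD012229, 14q, 414313687 to 414318164, minus strand), the classical inhibitor IkB-alpha, had 50.2, 50.2 and 84.2 CPM in Tig1 cells, 100.1, 44.6 and 55.9 CPM in Tig1P155A cells and 2.72, 2.67 and 10.04 CPM in control cells at 3 dpe and 18.8, 45.6 and 44.8 CPM in Tig1 cells, 44.3, 42.8 and 31.8 CPM in Tig1P155A cells and 3.21, 7.53 and 8.09 CPM in control cells at 8 dpe. The groups did not overlap, and its log2 fold change was 3.12 ± 0.36 (SE, adjusted p = 1.47e-06).

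REL (AMEX60DD035387, 4q, 415477687 to 416449297, minus strand), the subunit c-Rel found mainly in blood cells, had 18.9, 31.4 and 45.9 CPM in Tig1 cells, 43.9, 23.2 and 31.4 CPM in Tig1P155A cells and 1.09, 0.436 and 1.38 CPM in control cells at 3 dpe. At 8 dpe its level was 11.9, 28.1 and 45.5 CPM in Tig1 cells, 31, 21.6 and 24.2 CPM in Tig1P155A cells and 1.02, 0.439 and 1.26 CPM in control cells. All overexpressing libraries were at 11.9 CPM or above and all control libraries at 1.38 CPM or below, a log2 fold change of 4.97 ± 0.40 (SE, adjusted p = 1.35e-08). NFKB1 and NFKB2, which encode the p105 and p100 precursors, changed by 2.07 and 1.91 and were called in all 4 comparisons. By library size alone, NFKB1 lost 1 and NFKB2 lost 2 of those 4 calls. NFKBIZ, a nuclear inhibitor family member, and RELB changed by 1.58 and 0.88. Both lost their calls in the average by library size alone (0.98, adjusted p = 0.102, and 0.33, adjusted p = 0.453). RELA (AMEX60DD025048, 2q, 950253006 to 950767038, minus strand), the ubiquitous subunit p65, was not called. It had 11, 7.28 and 7.35 CPM in Tig1 cells, 16.7, 13.8 and 13.9 CPM in Tig1P155A cells and 7.31, 12.4 and 15.3 CPM in control cells at 3 dpe, and 8.0, 14.4 and 23.7 CPM in Tig1 cells, 6.19, 8.84 and 19.4 CPM in Tig1P155A cells and 13.5, 11.2 and 12.7 CPM in control cells at 8 dpe. The groups overlapped at both times, and the log2 fold change was 0.02 (95% interval -0.56 to 0.60), whose sign turned with the scaling, to -0.56 by library size alone and -0.07 with DESeq2 size factors.

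**Figure D4:**
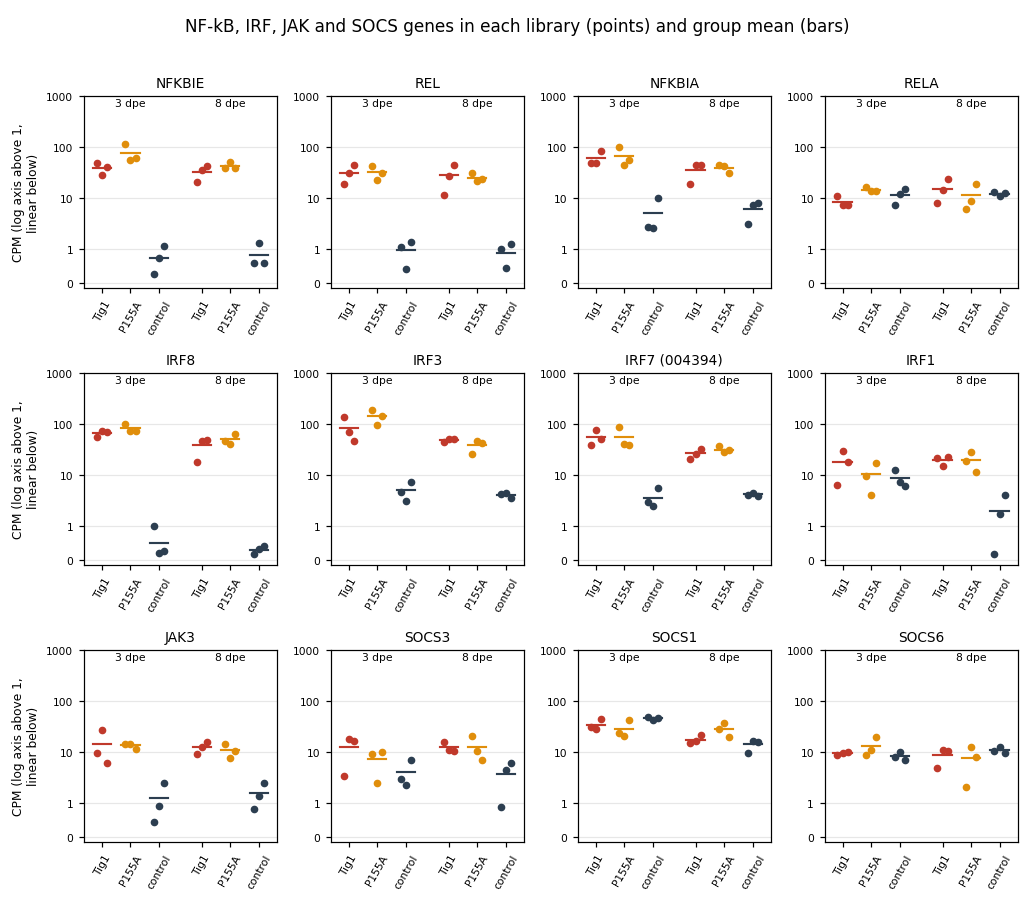
Levels of selected NF-kB, IRF, JAK and SOCS genes are plotted in CPM, with a point for each library and a bar for the group mean, on an axis logarithmic above 1 and linear below, for Tig1, Tig1P155A and control libraries at 3 and 8 dpe. For IRF8 the 12 overexpressing libraries lie between 18.5 and 103 CPM and the control libraries at 0.999 CPM or below.

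Of 10 IRF models, 8 were called higher in the average, where 21.4% of all genes tested were. Their median log2 fold change was 2.34, and by library size alone 6 were called higher. IRF8 (AMEX60DD017257, 1q, 146095720 to 146180686, plus strand), which directs the development of monocytes and dendritic cells, had 56.3, 74 and 69.7 CPM in Tig1 cells, 103, 73.9 and 75.2 CPM in Tig1P155A cells and 0.999, 0.203 and 0.284 CPM in control cells at 3 dpe. At 8 dpe its level was 18.5, 47.4 and 49.96 CPM in Tig1 cells, 46.4, 41.6 and 64.3 CPM in Tig1P155A cells and 0.197, 0.33 and 0.406 CPM in control cells. It had the lowest adjusted p of all members, with a log2 fold change of 7.21 ± 0.40 (SE, adjusted p = 1.97e-10) and no overlap. IRF3 (AMEX60DD016256, 1p, 1199256309 to 1199705537, minus strand), the factor that starts interferon-beta transcription, had 137, 71.2 and 46.2 CPM in Tig1 cells, 189.9, 95.7 and 146 CPM in Tig1P155A cells and 4.63, 3.11 and 7.44 CPM in control cells at 3 dpe and 44.9, 51.4 and 51.8 CPM in Tig1 cells, 26, 46.7 and 42.9 CPM in Tig1P155A cells and 4.29, 4.45 and 3.51 CPM in control cells at 8 dpe. Its overexpressing libraries did not overlap control libraries at either time, and the log2 fold change was 3.93 ± 0.29 (SE, adjusted p = 4.97e-09).

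IRF7 (AMEX60DD004394, 11q, 192957182 to 193005411, minus strand), the main driver of interferon-alpha genes, had 38.4, 76.6 and 51 CPM in Tig1 cells, 90.5, 41.9 and 39.4 CPM in Tig1P155A cells and 2.95, 2.5 and 5.53 CPM in control cells at 3 dpe. At 8 dpe its level was 21.2, 25.7 and 33.3 CPM in Tig1 cells, 36.8, 28 and 30.9 CPM in Tig1P155A cells and 4.19, 4.56 and 3.95 CPM in control cells. Every overexpressing library exceeded every control library, with a log2 fold change of 3.36 ± 0.27 (SE, adjusted p = 1.43e-08). A second IRF7 model (AMEX60DD004395), with 5 and 6 counts in control cells at 3 and 8 dpe, was not called. IRF5, which acts below TLR7 and MYD88, changed by 2.60. Its call in Tig1P155A cells at 3 dpe ended without Tig1 3 dpe R1 or R3, Tig1P155A 3 dpe R2 or R3, Tig1 8 dpe R2, Tig1P155A 8 dpe R2 or R3, or any control library (adjusted p = 0.0503 to 0.164), that in Tig1 cells at 8 dpe without Tig1 8 dpe R2 or R3 or any control library at 8 dpe (0.0531 to 0.135), and that in Tig1P155A cells at 8 dpe without any library of the Tig1P155A or control group at 8 dpe (0.0557 to 0.127). IRF9, the DNA-binding partner of STAT2, changed by 2.12 (AMEX60DD009562) and 2.56 (AMEX60DD039724), and IRF1, an interferon-induced activator, by 1.99 ± 0.49 (SE, adjusted p = 0.00317). IRF2, which opposes IRF1 at shared sites, changed by 1.19. By library size alone IRF2 was at 0.63 (adjusted p = 0.132) and IRF9 (AMEX60DD039724) at 2.06 (0.0569), both without a call, and that IRF9 model also lost its call when every gene with at least 1 count was tested (0.0894).

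JAK and STAT genes were called higher in 8 of 9 cases in the average, where 21.4% of all genes tested were. Their median log2 fold change was 1.54, and by library size alone 5 were called higher. JAK3 (AMEX60DD013851, 1p, 314975083 to 315573524, minus strand), the kinase of the common gamma chain receptors, had 9.51, 27.8 and 6.17 CPM in Tig1 cells, 14.4, 14.6 and 11.7 CPM in Tig1P155A cells and 0.454, 0.93 and 2.44 CPM in control cells at 3 dpe. At 8 dpe it had 9.38, 12.6 and 16 CPM in Tig1 cells, 14.7, 7.84 and 10.7 CPM in Tig1P155A cells and 0.819, 1.37 and 2.47 CPM in control cells. The groups did not overlap, and the log2 fold change was 3.18 ± 0.44 (SE, adjusted p = 1.04e-05).

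STAT4 (AMEX60DD055209, 9q, 236498396 to 237195008, minus strand), which acts below interleukin 12, was near the limit of detection. It had 0.432, 0.455 and 0.761 CPM in Tig1 cells, 0, 0.288 and 0 CPM in Tig1P155A cells and 0, 0 and 0 CPM in control cells at 3 dpe, and 0.12, 0.492 and 0 CPM in Tig1 cells, 0.115, 0 and 0.768 CPM in Tig1P155A cells and 0, 0 and 0 CPM in control cells at 8 dpe. With no count in any control library, it was at least 14.3-fold higher in Tig1 and 3.15-fold higher in Tig1P155A cells at 3 dpe, and at least 6.78-fold and 9.87-fold higher in the same kinds of cell at 8 dpe. Its call in the average (adjusted p = 0.0102) ended without Tig1P155A 3 dpe R2, the sole library of its group with a count. Both the Tig1P155A and the control group at 3 dpe then held 0 counts, so that fit cannot show whether the call holds. JAK1 and STAT2, partners in interferon signalling, changed by 1.88 and 1.54 and were called in all 4 comparisons. By library size alone, JAK1 lost 2 of those calls and STAT2 lost all 4. JAK2, STAT6 and STAT3 changed by 1.23, 0.82 and 0.79, and each lost its call in the average when libraries were scaled by size alone, at 0.60 (adjusted p = 0.125), 0.16 (0.726) and 0.21 (0.617). STAT6 also lost it without control 8 dpe R1 (0.0692) and without mitochondrial genes (0.0618). On the TMM scale, STAT3, which acts below interleukin 6 and is present in most cells, lay above every control library of its time in 12 of 12 libraries. That count was not made by library size alone. TYK2 was not called, with 0.36 (95% interval -0.14 to 0.86).

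SOCS genes, the feedback inhibitors of the JAK-STAT route, had the smallest median change of the 7 roles. In the average, 1 of 5 was called higher, where 21.4% of all genes tested were. None of the SOCS genes was called with either form at either time. Their median log2 fold change was 0.05, or -0.51 by library size alone, so that its direction turned. The count with an unadjusted p below 0.05 in the single comparisons was 1 and 0 at 3 dpe for Tig1 and Tig1P155A and 1 and 2 at 8 dpe, and DESeq2 called 0, 1, 0 and 0. SOCS3 (AMEX60DD031441, 3q, 1299982702 to 1299987344, plus strand), which inhibits signalling from interleukin 6 receptors, had 3.46, 18.2 and 16.4 CPM in Tig1 cells, 9.19, 2.54 and 9.9 CPM in Tig1P155A cells and 3.04, 2.32 and 7.15 CPM in control cells at 3 dpe. At 8 dpe it had 15.6, 11.3 and 10.6 CPM in Tig1 cells, 20.4, 10.6 and 7.03 CPM in Tig1P155A cells and 0.884, 4.45 and 6.13 CPM in control cells. The groups overlapped at 3 dpe, and the log2 fold change of 1.46 ± 0.47 (SE, adjusted p = 0.0188) lost its call without control 3 dpe R1 (1.36, adjusted p = 0.0508), control 3 dpe R2 (1.23, 0.065), control 8 dpe R1 (1.14, 0.0572) or the 3 libraries with the most 16S rRNA (1.21, 0.0633), and by library size alone (0.75, 0.172).

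SOCS6 (AMEX60DD039305, 5q, 254570727 to 254816331, minus strand), which acts on receptor tyrosine kinases, had 9.0, 9.86 and 10.3 CPM in Tig1 cells, 8.65, 11 and 19.7 CPM in Tig1P155A cells and 7.9, 10.2 and 6.91 CPM in control cells at 3 dpe and 4.99, 11.1 and 10.8 CPM in Tig1 cells, 2.06, 12.7 and 7.99 CPM in Tig1P155A cells and 10.3, 12.8 and 9.82 CPM in control cells at 8 dpe. The groups overlapped at both times, the difference was 0.01 (95% interval -0.64 to 0.67), and its sign turned with the scaling. SOCS1 (AMEX60DD021445, 2p, 599115753 to 599121386, plus strand), an inhibitor of JAK kinases and of interferon signalling, had 31.2, 27.9 and 44.7 CPM in Tig1 cells, 24, 20.5 and 42.1 CPM in Tig1P155A cells and 50.05, 43.1 and 46.7 CPM in control cells at 3 dpe. At 8 dpe it had 15.2, 16.4 and 21.5 CPM in Tig1 cells, 28.1, 36.8 and 19.6 CPM in Tig1P155A cells and 9.69, 16.9 and 16.1 CPM in control cells. At 3 dpe Tig1 R3 reached the control range and the other overexpressing libraries lay below it, whereas at 8 dpe Tig1 R1 and R2 lay within it and the others above. The log2 fold change in the average was 0.05 (95% interval -0.39 to 0.48), a value that joins these opposite directions. Its effect at 8 minus 3 dpe was 1.21, the highest of the SOCS genes, and was not called. Without Tig1P155A 3 dpe R3, SOCS1 was called lower in Tig1P155A cells at 3 dpe (-1.07, adjusted p = 0.0445). SOCS5 and SOCS7 had log2 fold changes of -0.06 and 0.74 and were not called.

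Other genes of these routes, taken from lists of symbols, were described by counts in the average. Of all genes tested, 21.4% were called higher and 18.7% lower in it. Of 15 listed co-factors and further adaptors of TLRs, 10 were found and 9 tested. Of those 9, 8 were called higher and 0 lower, with a median log2 fold change of 2.58. The largest change among them was in SYK, a kinase that signals to CARD9, at 6.17, and the smallest in TIRAP, the bridge from TLR2 to MYD88, at 0.19 (adjusted p = 0.869). Of 11 listed symbols of cytosolic nucleic acid sensors, 6 were found and tested. Of those 6, 5 were called higher and 0 lower, with a median of 3.29. STING1, the adaptor of DNA sensing, had the largest change, 5.56, and MAVS, the adaptor of the RNA sensors, the smallest, 2.20 (adjusted p = 0.113). The MAVS value joins unlike times. For Tig1 and Tig1P155A it was 4.31 and 3.88 at 3 dpe, against 1 control count, and 0.10 and 0.52 at 8 dpe, against 48. Of 22 listed interferon-stimulated genes, 7 were found and 5 tested, and those 5 were called higher. Their median was 4.28, between USP18, a negative regulator of interferon receptors, at 4.88 and OAS3, an oligoadenylate synthetase, at 1.31. That median is the fitted value of PSMB9, which had 4 control counts at 3 dpe and 0 at 8 dpe, so it is no bound.

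Of 14 listed NF-kB kinases and feedback genes, 12 were found and 11 tested. In the average, 6 of the 11 were called higher and 2 lower (21.4% and 18.7% of all genes tested), with a median of 0.82. TAB3, an adaptor of the kinase TAK1, had the largest absolute change. It was called lower and had 0 counts in Tig1 cells, 0 in Tig1P155A cells and 39 in control cells at 3 dpe, and 11, 9 and 164 counts in the same kinds of cell at 8 dpe. The other gene called lower was MAP3K7, which encodes TAK1, at -0.65 (adjusted p = 0.00419). TAB2, a relative of TAB3, had a log2 fold change of 0.07 in the average. Of 24 listed cytokine receptors and JAK-STAT regulators, 20 were found and 18 tested. Of those 18, 9 were called higher and 2 lower, with a median of 0.40. CSF2RB, the common beta chain of the GM-CSF receptor, changed by 7.85, and for IL6ST, the signal-transducing chain of interleukin 6 receptors, the value was 0.002, without a call. The 2 called lower were CISH, another SOCS family inhibitor, at -1.73, and the phosphatase PTPN2 at -0.82. IL2RG stands in this list and in the lymphocyte list.

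The effect of overexpression was compared between times as the mean effect of both forms at 8 dpe minus that at 3 dpe. No member was called in edgeR, where 0.142% of all genes tested were (0.0197% higher and 0.122% lower), 8 members had an unadjusted p below 0.05, 3 of them above and 5 below 0, and DESeq2 called 1. The 95% interval reached a median of 1.54 to either side, and 2 of 66 intervals lay within 1 log2 unit of 0 on both sides. The member with the lowest p was PYCARD (AMEX60DD028293), at 2.27 (95% interval 0.73 to 3.80, adjusted p = 0.308), the member that DESeq2 called (adjusted p = 0.0494). It had 11.2, 4.1 and 11.9 CPM in Tig1 cells, 7.92, 20.6 and 21.1 CPM in Tig1P155A cells and 5.86, 3.25 and 4.59 CPM in control cells at 3 dpe and 9.75, 22.3 and 13.5 CPM in Tig1 cells, 9.17, 21.4 and 15.9 CPM in Tig1P155A cells and 1.77, 0.275 and 1.44 CPM in control cells at 8 dpe. IRF1 (AMEX60DD028892, 3q, 165497738 to 165512351, minus strand) differed by 2.65 (95% interval 0.75 to 4.55, adjusted p = 0.338). It had 6.53, 29.6 and 18.2 CPM in Tig1 cells, 9.83, 4.18 and 17.3 CPM in Tig1P155A cells and 12.6, 7.23 and 6.14 CPM in control cells at 3 dpe, where the groups overlapped, and 21.8, 15.1 and 23.1 CPM in Tig1 cells, 18.9, 28.6 and 11.7 CPM in Tig1P155A cells and 0.197, 1.76 and 4.03 CPM in control cells at 8 dpe, where they did not. TLR2 and TLR5 had differences of -1.63 (95% interval -3.17 to -0.09) and -1.58 (95% interval -2.67 to -0.49), and neither passed the threshold (adjusted p = 0.494 and 0.317).

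**Figure D5:**
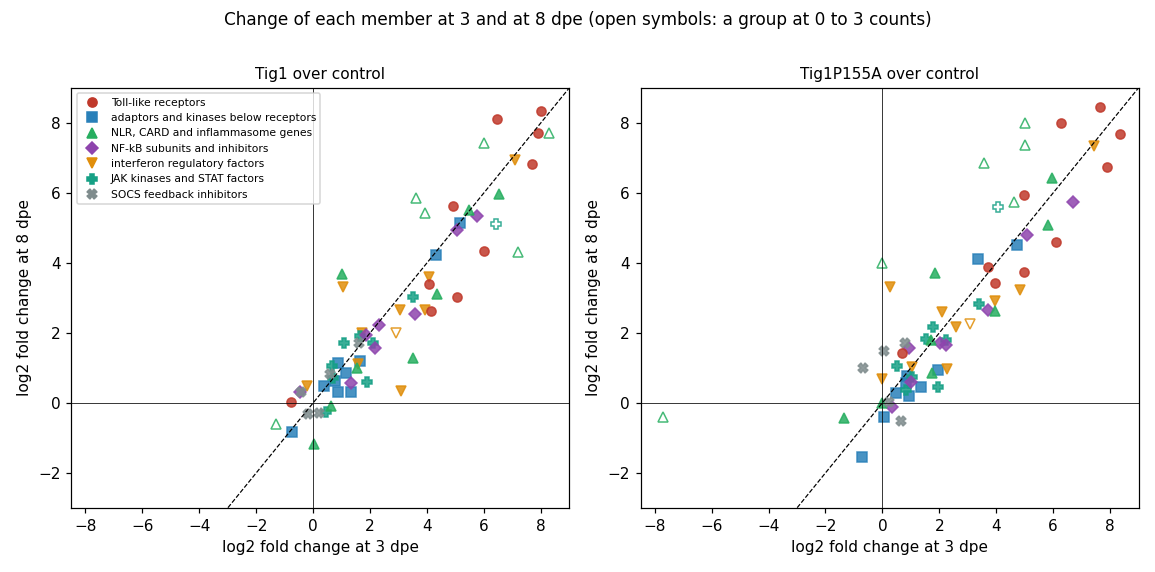
For each member, the log2 fold change against control at 8 dpe is plotted against that at 3 dpe, for Tig1 in the left panel and Tig1P155A in the right, with a line of equality and open symbols where a group held 0 to 3 counts. PYCARD (AMEX60DD028293) and IRF1 lie above the line in both panels, by a mean of 2.27 and 2.65 over the forms.

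Within each kind of cell, few members were called between the times. The 95% interval reached a median of 1.22 to either side in Tig1 cells, 1.22 in Tig1P155A cells and 1.28 in control cells. In that order, 6, 11 and 8 members had an interval within 1 log2 unit of 0 on both sides. For the others, these libraries leave room for a larger difference. In Tig1 cells at 8 against 3 dpe, 0 members were called in edgeR (6 with an unadjusted p below 0.05, and 1 called by DESeq2), where 0.0512% of all genes were (0.0433% higher and 0.00788% lower). In Tig1P155A cells 1 member was called, IRF3, at -1.90 (95% interval -2.73 to -1.07, adjusted p = 0.0239), where 1.38% of all genes were (0.201% lower). In control cells 1 member was called, SOCS1, at -1.71 (95% interval -2.44 to -0.99, adjusted p = 0.0349), where 0.422% of all genes were (0.154% lower). SOCS1 lost its call without control 3 dpe R1 (adjusted p = 0.0908) or without control 8 dpe R1 (0.117), R2 (0.0950) or R3 (0.108). IRF3 lost its call without Tig1P155A 3 dpe R1 (adjusted p = 0.110) or R3 (0.0794), or without Tig1P155A 8 dpe R1 (0.105), R2 (0.0956) or R3 (0.0732).

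Tig1 and Tig1P155A were compared with each other for every member. No member was called in edgeR in the average over both times, at 3 dpe or at 8 dpe, where 0%, 0.00394% and 0% of all genes were. At an unadjusted p below 0.05 there were 3, 3 and 0 members, and DESeq2 called 0 in each. In the average over both times the median difference was 0.01 on the log2 scale, the 95% interval reached a median of 0.86 to either side, and 28 of 66 intervals lay within 1 log2 unit of 0 on both sides. At 3 and 8 dpe alone, 13 and 16 did. The lowest p was that of NFKBIE, at -0.67 (95% interval -1.30 to -0.04, adjusted p = 0.697), whose levels in Tig1 cells at 3 dpe, 28.7 to 49.5 CPM, lay below those in Tig1P155A cells, 57.2 to 115 CPM. TLR7 differed by -0.05 (95% interval -1.02 to 0.92). CARD8 and TRAF5, the other members under an unadjusted p of 0.05, differed by 3.11 and 1.17. The CARD8 value is a fitted one. At 3 dpe its Tig1P155A libraries held 0 counts, and its 35 counts in Tig1 cells all came from R1. A p above the threshold does not show that the forms act alike, and for the other 38 members these libraries leave room for a difference of more than 1 log2 unit.

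Several members lie next to each other in the genome. TLR8 and TLR7 are neighbours on 7q with a gap of 88639 bases, and both rose in all 4 comparisons. The TLR13 models on 1q (gap 45973 bases), the CARD9 models on 8p (50694 bases), the IRF7 models on 11q (9491 bases) and the CARD19 models on 2q (141109 bases) are adjacent models with the same symbol, and the PYCARD models on 3p lie 456722 bases apart with 2 models between them. Both TLR13 models and both IRF7 models lie on the minus strand, and whether they are separate genes or pieces of one was not tested. The paired models of CARD9, CARD19 and PYCARD lie on opposite strands, so as annotated they are not pieces of 1 transcript. Reads could be split between near-identical copies. Of the 12 matching models under the level, TLR4, the lipopolysaccharide receptor, had 9 counts over all 18 libraries and at most 0.329 CPM. NLRP12 had the highest value, 0.659 CPM in 1 library, by library size. Also under it were TRAF3 (2 models), NOD1 (2 models), PYCARD (AMEX60DD028295), CARD14, NFKB1 (2 models) and NLRC3 (AMEX60DD052908), of which TRAF3 (AMEX60DD011103), PYCARD and NFKB1 (AMEX60DDU001022238) had no count in any library.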

How the data were processed

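RNA of sorted Hoxa13:mCherry blastema cells was sequenced in 18 Smart-seq2 libraries, 6 groups of 3. The deposited values are counts per gene that the authors made from their reads, and the submitters' processing notes name bcl2fastq 2.19.1, STAR 2.7.6a and featureCounts 2.0.1. Gene models and positions follow build AmexG_v6.0-DD as in the file of counts. Whether counting used strand is not given in the sources used here, so overlapping genes may share reads. The 92 spike-in rows held 0 counts and were left out.

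Counts as deposited were fitted with edgeR 4.0.16 (R 4.3.3, limma 3.58.1) by quasi-likelihood with TMM scaling, 1 mean for each group over all 18 libraries and 12 residual degrees of freedom. The 25377 genes with 0.5 CPM by library size in at least 1 library were tested, p-values were adjusted over them by the Benjamini-Hochberg method, and a gene was called at an adjusted p below 0.05. Printed CPM are on the TMM scale, and a level of 3 counts corresponds to 0.0872 to 0.455 CPM. Levels are not compared between genes, since no lengths were used. Where a control group held 0 counts, a fold was set against 3 counts over the group. Where it held 1 to 3, the ratio has an exact 95% interval, which covers counting error only. Figures were drawn with matplotlib 3.10.9 (Python 3.11.15).

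Values in every library are given for the 3 called members of each role with the largest change in the average, or fewer where fewer were called, and for the 2 members without a call and with a mean of at least 4 CPM that changed least. TLR8, TLR3, TLR1, CARD8, MYD88, PYCARD, IRF1 and SOCS1 were added after their values were seen. Some members are counted but not reported here by name. From each list of pathway genes only the largest and smallest changes were named, apart from genes called lower. Members and lists were chosen with earlier results of these data known. Alternatives were other scalings, other filters, DESeq2 1.42.0, fits of the compared libraries only, mitochondrial genes left out, the replicate number as a block, each library left out, and, chosen after seeing the data, the 3 libraries with over 50% 16S rRNA left out.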

Additional observations from a re-analysis of the deposited data

How the results depend on the processing

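The counts of members called in the 4 comparisons with control and in their average stayed within 1.5 times under every alternative run. With each library left out in turn they ranged from 31 to 38 for Tig1 and from 30 to 38 for Tig1P155A at 3 dpe, from 26 to 35 for Tig1 and from 27 to 34 for Tig1P155A at 8 dpe, and from 44 to 49 in the average. Counts near 0 moved more. For the overexpression effect at 8 minus 3 dpe, 0 members were called, against 3 when every gene with at least 1 count was tested and 1 with DESeq2. The calls over all genes for that effect moved as well, from 36 to 659 and 433. For control cells at 8 against 3 dpe, 1 was called, against 0 by library size alone, 5 when every gene with at least 1 count was tested, 4 with DESeq2 and 0 to 1 with a library left out. For Tig1P155A cells at 8 against 3 dpe, 1 was called, against 0 by library size alone, 2 when every gene with at least 1 count was tested, 3 with DESeq2, 0 without the libraries with over 50% 16S rRNA, an alternative chosen after seeing the data, and 0 to 1 with a library left out. For Tig1 cells at 8 against 3 dpe, 0 were called, against 1 with DESeq2. Over all genes, DESeq2 called 608 in control cells, 1448 in Tig1P155A cells and 775 in Tig1 cells, against 107, 349 and 13 in the main fit. Fewer samples explain the leave-one-out values in part by construction, and the cause of the other changes was not tested.

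Of 544 values of named members in the average, 504 kept direction and call, 8 lost the call and 32 turned sign, all 32 of them in RELA and SOCS6, which changed by 0.02 and 0.01 and were not called. SOCS6 was -0.095 with DESeq2 size factors, -0.51 by library size alone, -0.013 with the filter of at least 1 CPM in at least 3 libraries, -0.094 with DESeq2, -0.19 without mitochondrial genes, -0.065 with the replicate block and -0.18 to 0.12 with a library left out. RELA was -0.073 with DESeq2 size factors, -0.56 by library size alone, -0.073 with DESeq2, -0.18 without mitochondrial genes and -0.19 to 0.10 with a library left out. Relative to TMM, the median of all genes shifted by -0.57 by library size alone, -0.15 without mitochondrial genes and -0.10 with DESeq2 size factors, and the members called in the average were then 35 higher and 2 lower, 45 and 2, and 47 and 1. Over all genes, 11024, 10873 and 10534 were called in either direction in these settings, against 10182 in the main fit. Fits of only the libraries compared gave no value for the average and for the effect at 8 minus 3 dpe.

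Over 18 same-number pairs within a time point the residual correlation ran from -0.25 to 0.20, with a mean of -0.03, against 0.01 for pairs of other numbers. These values cannot show whether samples of the same number came from the same blastemas, which the sources used here do not say. With the replicate number as a block, 37 and 35 members were called at 3 dpe for Tig1 and Tig1P155A, 30 and 32 at 8 dpe, and 48 in the average. Depth limits the members near 1 count per library, such as STAT4 and NLRC4, whose calls rest on a few libraries.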
